A study of Sus scrofa with 4 samples.

Results

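The supporting tissue of the liver was followed through 47 genes of 6765 that the array names: genes of the extracellular matrix, of contractile mesenchymal cells and of endothelium. They were chosen by name, with earlier results of these data known. Of 40 listed genes 34 have an annotated probe set, and all 13 further genes whose symbol begins with COL and a digit, which are collagens, were added. COL1A1, COL6A1, LAMA4, PDGFRA, RELN and EMCN have no annotated probe set here and were not analysed. The 47 genes are covered by 95 probe sets, 27 genes by more than 1, and for each gene the probe set with the highest mean log2 signal was used. In 34 of the 47 that signal lay above 111, the median of all 23999 probe sets.

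Liver is built mostly of hepatocytes. Its matrix is laid down chiefly by stellate cells beneath the sinusoids and by portal fibroblasts around vessels and bile ducts, fibrillar collagens giving tensile strength, small proteoglycans such as decorin ordering the fibrils, and collagen IV with laminins forming basement membranes. Smooth muscle of portal vessels and activated stellate cells carry actin, calponin and transgelin of the contractile apparatus, while endothelial cells line vessels and sinusoids. In a whole-tissue sample, fewer cells of a type and less RNA per cell cannot be told apart.

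The samples were livers of male crossbred pigs, a (German Landrace x Large White) x Pietrain cross, killed at 7 weeks of age and 2.5 h after a meal, at the end of 21 days on a basal diet (control) or on that diet with 500 mg of L-carnitine added per kg (carnitine). Each diet is represented by 2 RNA pools of 4 pigs, each pool on its own Affymetrix porcine array. Single pigs cannot be read from a pool, and a test over pools measures the spread between pools only. The lowest two-sided p that exact permutation of 4 pools can reach is 0.333. Signals are MAS5 intensities in array units, and a set of 4 is given in the order carnitine pools 1 and 2 against control pools 1 and 2.

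Hepatocyte markers were bright on every array. The summed signal of 9 measured hepatocyte markers, albumin (ALB) among them, was 321002 and 289811 with carnitine against 349134 and 318654 without it. The median signal of all probe sets ranged from 109 to 114 over the arrays. The ratio of signal at the 3' end to that at the 5' end, which rises with RNA breakdown, was 18.7 and 16.1 against 12.5 and 11.6 for GAPDH. For actin it was 157 and 136 against 91.2 and 86.7. Both ratios separated the diets and were close between the control pools. That of EF1A was 23.4 and 29.6 against 57.9 in control pool 1 and 18.2 in control pool 2, so that control pool 1 was highest and the diets overlapped. The part of RNA quality in the results was not tested.

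The pools of the control diet differed widely in stromal transcripts, and control pool 2 was the higher. Of the 47 genes, 36 had a higher signal in control pool 2 than in control pool 1, where 48.5% of all genes did. The median log2 difference was 0.62 against -0.017 over all 6765 genes. The signal was at least 2-fold higher in control pool 2 for 21 genes, among them ACTA2, VWF, SPP1, TAGLN and DCN, where the share over all genes was 8.09%. It was at least 2-fold higher in control pool 1 for 2, KDR and COL10A1, both dim, with 6.00% over all genes. A further dim probe set of KDR went the other way, with 2.49 in control pool 1 and 35.6 in control pool 2. The carnitine pools differed by less, with a median of -0.15 (pool 2 minus pool 1) against 0.012 over all genes. Their difference also leaned to one side, since 32 of the 47 were lower in carnitine pool 2, where 3278 of all 6765 genes were. By 2-fold or more in either direction, 4 of the 47 differed (COL3A1, COL11A1, COL15A1 and TIMP3), with 9.64% over all genes. Each of these comparisons sets 1 array against 1 array, has no replicate and was given no test, and the pools cannot be told apart from their arrays.

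The 34 brighter genes gave like shares. In 15 of them control pool 2 was higher by 2-fold or more, where 3.87% of the 5039 genes above the median signal were, and in 0 of them control pool 1 was, against 2.20%. The carnitine pools differed by that much in 2, COL15A1 and TIMP3, against 1.91%. Ranked by the excess of control pool 2 over control pool 1, VWF stood 4th, ACTA2 5th, SPP1 7th and COL15A1 8th among the 5039 genes, and 7 of the first 20 and 12 of the first 50 were members of the group. The filter on signal uses the mean of all 4 pools and lets in genes that are high in only 1 pool, so that these counts describe the genes that passed.

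**Figure D1:**
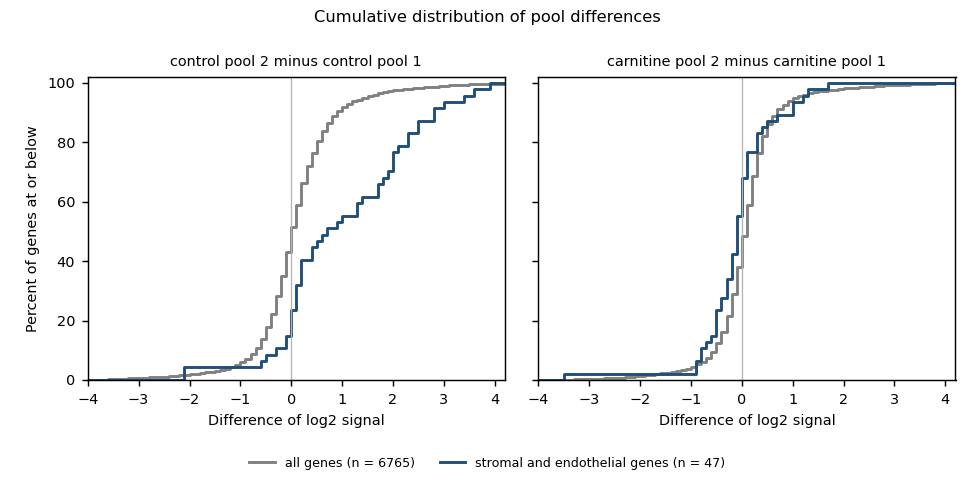
Cumulative percent of genes (vertical axis) at or below each difference of log2 signal (horizontal axis), for control pool 2 minus control pool 1 on the left and carnitine pool 2 minus carnitine pool 1 on the right, with the 47 stromal and endothelial genes in blue and all 6765 genes in grey. The blue line lies far to the right of the grey line between the control pools, with medians of 0.62 and -0.017. Between the carnitine pools it lies a shorter distance to the left around 0, with medians of -0.15 and 0.012.

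Control pool 2 also exceeded the carnitine pools, while control pool 1 often lay below them. Control pool 2 had the highest signal of the 4 pools for 32 of the 47 genes, with a share of 25.6% over all genes, and for 25 of the 34 brighter ones, with 24.7% over all brighter genes. In 18 of the 47 both carnitine pools lay between control pool 1 below and control pool 2 above, an order found for 9.50% of all genes. Among the brighter genes it was 16 of 34 against 9.41%.

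The contractile and cytoskeletal genes differed widely between the control pools. All 7 were higher in control pool 2, with a median log2 difference of 1.22 between the control pools. Smooth muscle actin ACTA2, the usual mark of activated stellate cells and vascular muscle, had a signal of 1174 and 1099 in carnitine pools 1 and 2 against 542 and 5533 in control pools 1 and 2, so that the control pools differed 10.2-fold with the carnitine pools between them. Transgelin (TAGLN), an actin-binding protein of smooth muscle, had 538 and 437 against 363 and 1995. Control pool 2 alone stood high, 5.50-fold above control pool 1. Calponin (CNN1), which restrains the actin-activated ATPase of myosin, followed the same order with 210.2 and 219.9 against 181 and 758. Vimentin (VIM), the intermediate filament of mesenchymal cells, gave 2644 and 2379.6 against 1879 and 4384, a ratio of 2.33 between the control pools.

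The other 3 contractile genes were ordered differently. The signal of MYL9, the regulatory light chain of smooth muscle myosin, was 449 and 434 in carnitine pools 1 and 2 against 836 and 913 in control pools 1 and 2, so that the control pools were 1.09-fold apart and both lay well above the carnitine pools. Tropomyosin TPM2, which lies along the actin filament, had 901 and 789.9 against 1156 and 1776. Here the control pools differed 1.54-fold, and the diets again did not overlap. Desmin (DES), the muscle intermediate filament that marks quiescent stellate cells of rodents, gave 178 and 158 against 212 and 221 and was nearly level between the control pools. The summed signal of the 7 genes was 6095 and 5517 with carnitine against 5169 and 15581 without it, and without these 7 genes the median difference between the control pools over the remaining 40 was 0.54.

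**Figure D2:**
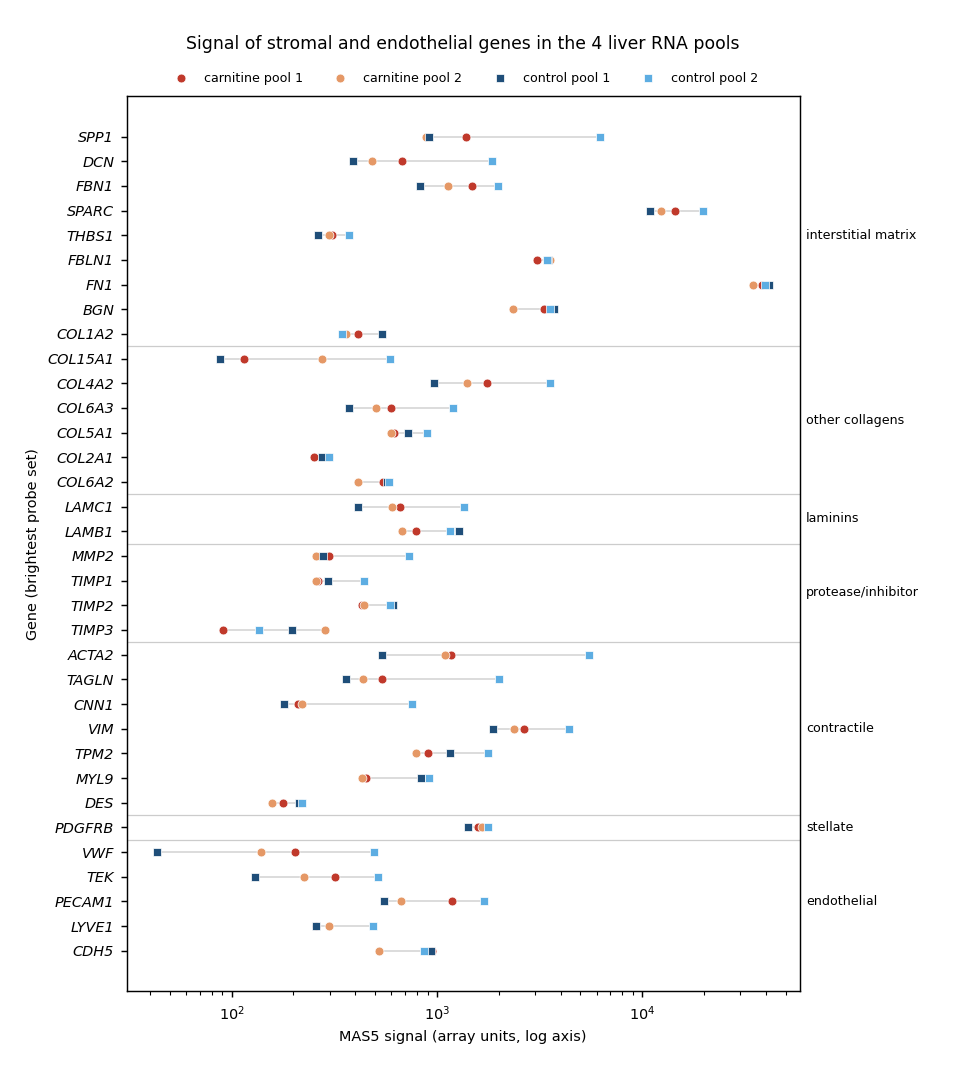
MAS5 signal in array units on a log axis for the 34 genes above the median signal, 1 row per gene grouped by role, drawn as circles (carnitine pools) and squares (control pools) on a grey line over their range. The light blue square of control pool 2 lies at the right end for 25 of the 34 genes, as for ACTA2 at 5533, and the circles of the carnitine pools lie between the squares for 16.

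Of 11 measured genes of the interstitial matrix, 7 were higher in control pool 2 than in control pool 1. The median log2 difference was 0.86 over the 11 and 0.49 over the 9 brighter ones, of which 5 were higher in control pool 2. Decorin (DCN), a small proteoglycan that binds collagen fibrils, had a signal of 675 and 482 in carnitine pools 1 and 2 against 388 and 1848 in control pools 1 and 2, 4.76-fold higher in control pool 2 than in control pool 1. Fibrillin 1 (FBN1), the backbone of microfibrils, gave 1483 and 1135 against 829 and 1990.3, with the carnitine pools again between the control pools. Osteopontin (SPP1), a secreted phosphoprotein that bile duct cells and macrophages also make, had 1382 and 882 against 920.0 and 6231. Control pool 2 stood alone at 6.77 times control pool 1, and the 3 other pools lay between 882 and 1382. SPARC, a collagen-binding glycoprotein, had 14495 and 12374 against 10946 and 19833, a ratio of 1.81, and thrombospondin 1 (THBS1), which binds matrix and activates latent TGF-beta, gave 309.7 and 297 against 265 and 373, a ratio of 1.41.

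The remaining 4 genes of the matrix were level between the control pools or lower in control pool 2. Fibulin 1 (FBLN1), an elastic fibre and basement membrane glycoprotein, had 3057 and 3544 in carnitine pools 1 and 2 against 3470.2 and 3453 in control pools 1 and 2. Fibronectin (FN1), which hepatocytes secrete into plasma besides its stromal form, gave 38312 and 34566 against 41362 and 39669. Both were flat over the 4 pools, with ratios of 0.995 and 0.959 between the control pools. Biglycan (BGN), a proteoglycan related to decorin, had 3326 and 2336 against 3722 and 3538, and only carnitine pool 2 stood apart, below the others. COL1A2, a chain of type I collagen, the main fibrillar collagen of scar tissue, gave 411 and 362 against 541 and 345. Control pool 2 stood at 0.638 of control pool 1 for COL1A2, the lowest such ratio among the 34 brighter genes, and the order of the control pools was opposite to that of DCN.

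Collagens of basement membranes and of microfibrils were among the genes that stood high in control pool 2. COL4A2, a chain of the basement membrane collagen IV, had a signal of 1749.5 and 1409 in carnitine pools 1 and 2 against 964 and 3558 in control pools 1 and 2. COL15A1, a collagen found beneath endothelium and around muscle, gave 115 and 277 against 88.3 and 589. The control pools differed 3.69-fold and 6.67-fold, and COL15A1 also differed between the carnitine pools. COL6A3 and COL6A2 are chains of the same beaded-filament collagen VI. COL6A3 had 595 and 503 against 375 and 1197, and COL6A2 had 547 and 411 against 574 and 583. The control pools thus differed 3.19-fold in the first and 1.02-fold in the second. COL5A1, a collagen V chain that sets fibril diameter, had 617 and 600.4 against 727 and 897, and COL2A1, the collagen of cartilage, was level at 253 and 298 against 275 and 297. Over all 15 collagens, 8 of them dim, the median log2 difference between the control pools was 1.67, and over the 7 brighter ones it was 0.30.

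The laminin chains behaved unlike each other. LAMC1, the gamma chain shared by most laminins, had a signal of 659 and 602 in carnitine pools 1 and 2 against 414 and 1356 in control pools 1 and 2, 3.28-fold higher in control pool 2. LAMB1, a beta chain that pairs with it, gave 788 and 679.8 against 1278 and 1158. Control pool 2 stood at 0.906 of control pool 1 there, and both exceeded both carnitine pools.

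Of the protease and the inhibitors of matrix turnover, only MMP2 was higher in control pool 2 by more than 2-fold in the chosen probe set. MMP2, a gelatinase made by stellate cells, had a signal of 298 and 257 in carnitine pools 1 and 2 against 279.6 and 733 in control pools 1 and 2. Control pool 2 stood 2.62-fold above control pool 1, which lay between the carnitine pools. Its inhibitor TIMP2 gave 432 and 439.9 against 612 and 589.9 and was level within each diet, unlike in a further probe set described below. TIMP1, the inhibitor most tied to liver fibrosis, had 263 and 258 against 295 and 441, with control pool 2 highest. TIMP3, an inhibitor bound to the matrix, gave 90.4 and 286 against 197 and 136. Its carnitine pools differed 3.16-fold, more than its control pools did.

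Of 8 measured endothelial genes, 6 were higher in control pool 2, with a median log2 difference of 0.56 between the control pools. Von Willebrand factor (VWF), a clotting glycoprotein of larger vessels, had a signal of 203 and 139 in carnitine pools 1 and 2 against 43.5 and 495 in control pools 1 and 2, so that control pool 1, below the median signal of its array, was lowest and the control pools differed 11.4-fold, a gap that a further, dim probe set did not show. The log2 difference of VWF, 3.51, was 2.38 with an offset of 64 added to each signal. TEK, the receptor of angiopoietins, gave 318 and 225 against 131 and 515. PECAM1, an adhesion protein of endothelial junctions, had 1182 and 665 against 552 and 1691. The ratios between the control pools were 3.94 and 3.06, and for both genes carnitine pool 1 exceeded carnitine pool 2. LYVE1, a hyaluronan receptor of sinusoidal and lymphatic endothelium, gave 257 and 298 against 259 and 491, with control pool 2 alone high at a ratio of 1.89. VE-cadherin (CDH5), the adhesion protein of endothelial junctions, had 942 and 519.8 against 940.4 and 868. It was level between the control pools, and only carnitine pool 2 was lower. PDGFRB, the PDGF receptor of stellate cells and pericytes, gave 1588 and 1650.2 against 1424 and 1769, a ratio of 1.24 between the control pools with the carnitine pools between them.

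**Figure D3:**
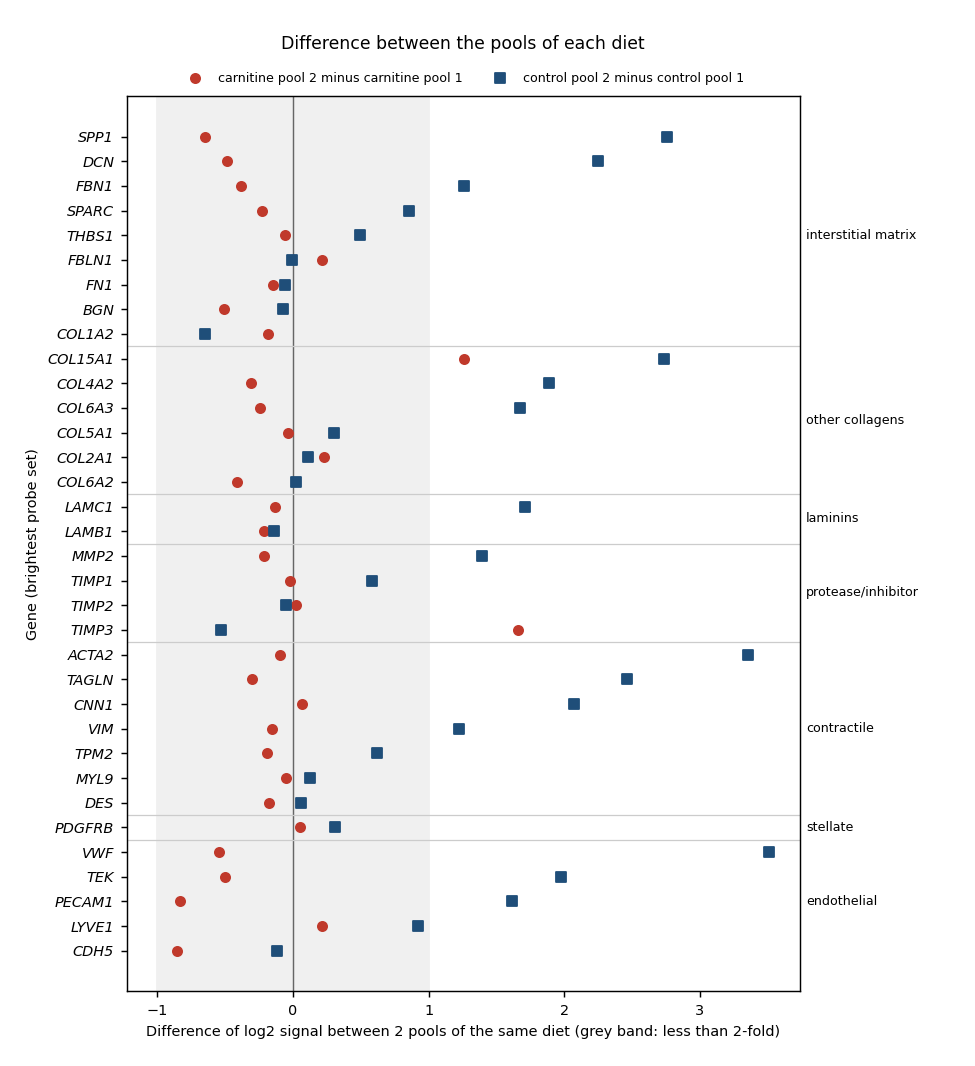
Difference of log2 signal between the pools of the same diet, pool 2 minus pool 1, for the 34 genes above the median signal, with blue squares for the control diet, red circles for the carnitine diet and a grey band for differences of less than 2-fold. Blue squares lie beyond the band on the right for 15 genes, with VWF at 3.51 and ACTA2 at 3.35, and on the left for 0, while red circles lie beyond it for COL15A1 and TIMP3 alone.

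The other 13 genes had signals between 3.15 and 437, with a mean log2 signal at or below the median. They were COL3A1, LUM, RGS5, FLT1, KDR, TIE1 and the collagens COL5A2, COL5A3, COL7A1, COL8A1, COL10A1, COL11A1 and COL17A1. Lumican (LUM), a fibril-binding proteoglycan named here after its values were seen, had 90.5 and 47.5 in carnitine pools 1 and 2 against 31.2 and 437 in control pools 1 and 2, in the order of DCN. COL3A1, the collagen III chain of reticular fibres and likewise chosen after its values were seen, gave 101 and 219 against 21.4 and 121, lowest in control pool 1 but highest in carnitine pool 2. KDR, a VEGF receptor, was at 5.40 and 3.23 against 14.3 and 3.15, and FLT1, another, was at 35.1 and 33.1 against 48.4 and 49.7. Both of these defining markers of endothelium were thus dim on every array, unlike PECAM1 and CDH5.

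Further probe sets of the same genes gave a check that did not use the chosen probe set. For 5 genes a further probe set lay above the median signal. That of LAMC1 had 189 and 154 against 93.4 and 172 (carnitine pools 1 and 2 against control pools 1 and 2), and that of COL5A1 had 379 and 274 against 373 and 531, both with control pool 2 above control pool 1. That of TPM2 had 684 and 546 against 1014 and 1375, with both control pools above both carnitine pools as in the chosen one. For TIMP2 the probe sets disagreed. Its further one had 394 and 244 against 167 and 583, 3.50-fold higher in control pool 2, while the chosen one was level. The further probe set of FN1 gave 1403 and 1326 against 1023 and 620.0, lower in both control pools than in both carnitine pools and so opposite to the chosen one. Of 32 dim further probe sets of the brighter genes, 19 were higher in control pool 2 and 13 in control pool 1. For genes whose chosen probe set was higher by 2-fold or more in control pool 2, 6 of 9 dim ones were higher there. The dim one of PECAM1 had 87.5 and 100.3 against 60.7 and 119, whereas 1 of VWF, with 89.3 and 45.3 against 42.7 and 47.3, was nearly level between the control pools. For TPM2, 2 dim probe sets, with 100.3 and 91.3 against 150.0 and 68.7 and with 65.5 and 75.9 against 91.5 and 58.3, were lower in control pool 2 and did not separate the diets.

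Between the diets, most stromal genes had a lower mean log2 signal in the carnitine pools, but 0 of the 47 passed the test. In limma, which was fitted on all 23999 probe sets and of which 0.00417% passed an adjusted p of 0.05, no gene of the group was called. At an unadjusted p under 0.05, 4 were lower (LAMB1, MYL9, TPM2 and the dim COL8A1), with 3.93% over all probe sets, and 0 were higher, with 4.72%. Over all 6765 genes, with 1 probe set each, 270 were lower and 444 higher at that p. A one-factor analysis of variance called 0 of the 47 after adjustment, with 0% over all probe sets, and 5 before it, with 7.01%. The median log2 change was -0.35 over the 47 genes, 39 of them below 0, and -0.0089 over all 6765 genes, 3441 of them below 0.

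Both carnitine pools lay below both control pools for 14 of the 47 genes, where the share was 21.0% over all genes, and above them for 1, COL7A1, where it was 21.5%. Among the 34 brighter genes these counts were 10, with 21.6% over all brighter genes, and 0, with 23.7%. MYL9 differed most clearly. Its mean signal was 442 ± 10.8 in the carnitine pools and 875 ± 54.4 in the control pools (SD, n = 2 pools each, as in what follows). The log2 difference of carnitine minus control was -0.99 (SE 0.21, limma adjusted p = 0.342). LAMB1 had 734 ± 76.7 in the carnitine pools and 1218 ± 85.1 in the control pools (log2 change -0.73, SE 0.20, limma adjusted p = 0.421), and TPM2 had 846 ± 78.6 in the carnitine pools and 1466 ± 438 in the control pools (log2 change -0.76, SE 0.25, limma adjusted p = 0.472). In these 3 genes the SD within each diet was smaller than the difference of the means, and the pools of the diets did not overlap.

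The other 7 brighter genes without overlap had smaller differences. TIMP1 had a mean signal of 260.4 ± 2.97 in the carnitine pools and 368 ± 103 in the control pools (log2 change -0.47, SE 0.29, limma adjusted p = 0.698). TIMP2 had 436 ± 5.27 in the carnitine pools and 601 ± 15.9 in the control pools (log2 change -0.46, SE 0.22, limma adjusted p = 0.612), a difference its further probe set did not share, since there the pools of the diets overlapped. The log2 change was -0.41 for COL5A1 (SE 0.22), -0.38 for BGN (SE 0.22) and -0.37 for DES (SE 0.30). For COL6A2 it was -0.29 (SE 0.24) and for FN1 -0.15 (SE 0.20). The limma adjusted p of these 5 lay between 0.661 and 0.869. For FN1, BGN and COL6A2 the pools of the diets lay apart by less than the carnitine pools differed between themselves.

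The sign of the diet difference depended on which control pool was used. Set against control pool 2 alone, the mean of the carnitine pools was lower for 42 of the 47 genes and 3441 of all 6765. The median log2 difference of the 47 was -0.62. Set against control pool 1 alone, the carnitine mean was lower for 23 of the 47 and 3423 of all 6765, with a median of 0.095 over the 47. Without control pool 1, limma called 1 of the 47, with 0.0333% over all probe sets. It was ACTA2 (log2 change -2.28, adjusted p = 0.0428 in limma), in a fit whose single control pool is assumed to vary like the carnitine pools. Without control pool 2 the log2 change of ACTA2 was 1.07, opposite in sign, and with all 4 pools it was -0.61 (SE 0.90, limma adjusted p = 0.887). MYL9, in contrast, gave -1.05 without control pool 1 and -0.92 without control pool 2, and LAMB1 gave -0.66 and -0.80.

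**Figure D4:**
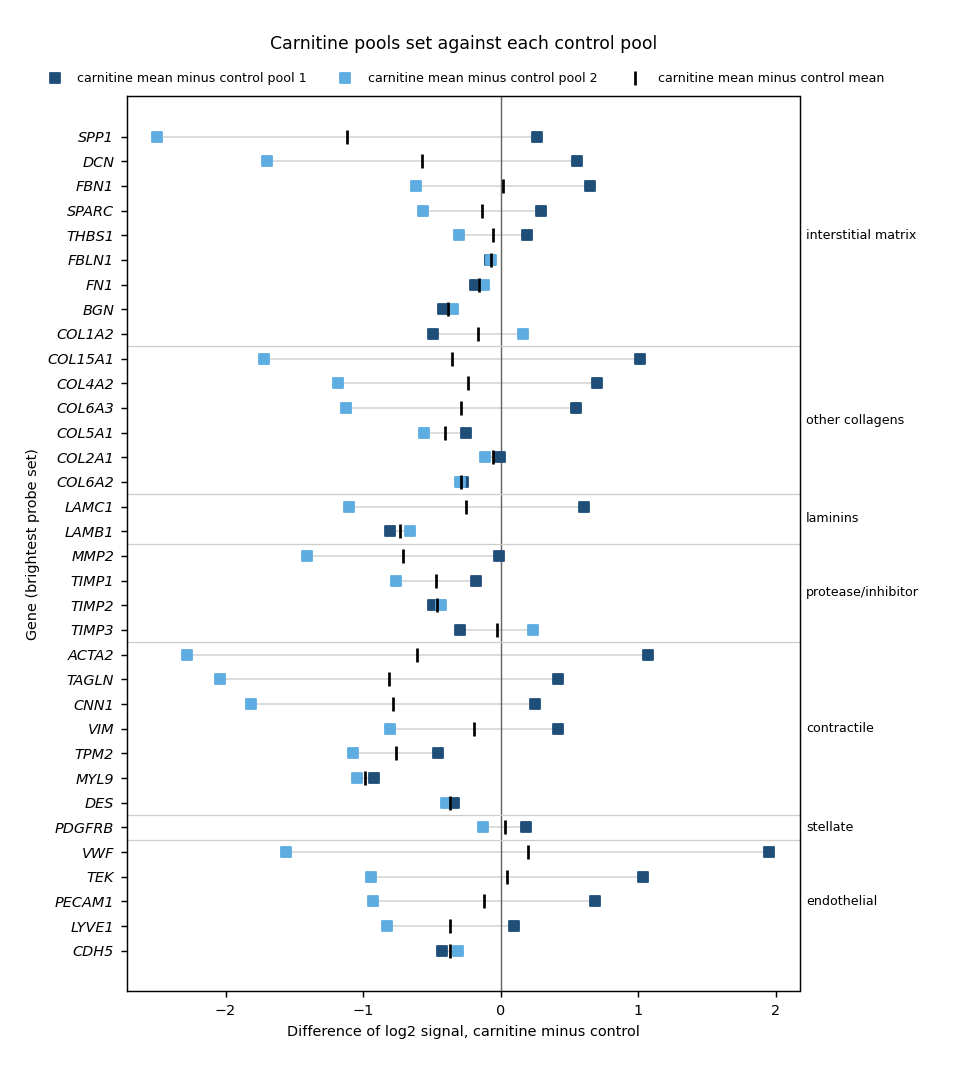
Mean log2 signal of the carnitine pools minus that of control pool 1 (dark squares), of control pool 2 (light squares) and of both (black ticks), for the 34 genes above the median signal. The squares lie on opposite sides of 0 for genes such as ACTA2 (1.07 and -2.28) and VWF (1.95 and -1.56), and close together below 0 for MYL9 and LAMB1.

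Other genes of the same tissues were read from further lists. Of 29 other matrix and basement membrane genes, 12 were measured, with a median log2 difference of 0.92 between the control pools (control pool 2 minus control pool 1). Matrix Gla protein (MGP), an inhibitor of calcification, had 5086 and 4671 in carnitine pools 1 and 2 against 2303 and 12212 in control pools 1 and 2, and asporin (ASPN), a proteoglycan related to decorin, had 115 and 154 against 122 and 326. Both were highest in control pool 2, 5.30-fold and 2.68-fold above control pool 1. Of 29 other endothelial genes 19 were measured, with a median of 0.58. Caveolin 1 (CAV1), the coat protein of caveolae, had 1166 and 1378 against 1078 and 3016, and claudin 5 (CLDN5), of endothelial tight junctions, 206 and 189.5 against 117 and 309. Of 17 other contractile genes 14 were measured, with a smaller median of 0.39, calponin 3 (CNN3) standing highest at 1135 and 1051 against 796 and 2240.0.

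The regulators and enzymes around the matrix had smaller medians over all measured genes, but not all did above the median signal. The 8 measured genes of collagen processing and crosslinking had a median difference of 0.29 between the control pools, the 9 integrins and collagen receptors one of 0.33, the 14 other proteases and inhibitors one of 0.17 and the 8 TGF-beta pathway genes one of -0.14. Above the median signal, the other matrix, endothelial and contractile lists had medians of 0.83, 0.45 and 0.40. There the median was 0.67 over 6 integrins and collagen receptors and 0.53 over 6 other proteases and inhibitors. It was 0.36 over 7 genes of collagen processing and -0.14 over 4 of the TGF-beta pathway. Matrilysin (MMP7), a protease that bile duct epithelium makes, had 600.3 and 996 in carnitine pools 1 and 2 against 234 and 1914 in control pools 1 and 2, and its ratio of 8.17 was the largest excess of control pool 2 among the genes of these 4 lists, in which LOXL1 and ITGAV were also higher there by 2-fold or more at a signal above the median. Below the median signal, TGFB3 and TGFBR3 were higher in control pool 2 by that much, and LOX, TGFB2, SMAD3, ITGA2 and MMP9 lower. The 5 other measured genes of stellate cells gave -0.12.

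Between the diets 0 of these 88 further genes passed the adjusted p in limma, and at an unadjusted p under 0.05, 2 were higher and 6 lower with carnitine. SELP, an adhesion receptor of activated endothelium, was lower with 139 and 109.7 in carnitine pools 1 and 2 against 188 and 332 in control pools 1 and 2 (log2 change -1.01, SE 0.38, limma adjusted p = 0.524). Endoglin (ENG), a TGF-beta co-receptor of endothelium, was lower with 838 and 598 against 982 and 1256 (log2 change -0.65, SE 0.25, limma adjusted p = 0.535), and so was BAMBI, a decoy receptor of TGF-beta, with 109.8 and 121 against 218 and 200.2 (log2 change -0.86, SE 0.32, limma adjusted p = 0.517). On the other side lay integrin alpha 5 (ITGA5), the fibronectin receptor, with 640.1 and 516 against 168 and 312 (log2 change 1.33, SE 0.34, limma adjusted p = 0.399), and P4HA2, which hydroxylates collagen prolines, with 629 and 750.4 against 434 and 446 (log2 change 0.64, SE 0.22, limma adjusted p = 0.491). In each of the 5 the diets did not overlap, but they were named for their small p. Over all genes both carnitine pools lay below both control pools for 21.0% and above them for 21.5%. Of the 19 other endothelial genes, 4 were lower and 0 higher at that p, with 3.93% and 4.72% over all probe sets.

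Markers of bile duct cells stood higher in control pool 2 along with the stromal genes, whereas most of those of hepatocytes and leukocytes did not. Of 5 markers of cholangiocytes 4 were measured, 3 of them at or below the median signal, and all 4 were higher in control pool 2. Their summed signal was 387 and 429 with carnitine against 320.3 and 1133 without it. EPCAM, an epithelial adhesion protein, had 283 and 302 in carnitine pools 1 and 2 against 288 and 869 in control pools 1 and 2, and the keratin KRT19, dimmer, had 73.4 and 90.9 against 25.4 and 242, while SOX9 was at 3.46 and 6.84 against 4.92 and 5.57. The summed signal of 7 markers of Kupffer cells or macrophages was 5051 and 4349 with carnitine against 6099 and 5515 without it, and 3 of the 7 were higher in control pool 2, with a median log2 difference of -0.18. For T or NK cells 2 of 6 markers were higher there, with a median of -0.21, for B or plasma cells 0 of 2 (-1.23) and for hepatocytes 1 of 9 (-0.12). Of the 2 measured erythroid markers, the globin HBB had 309.7 and 299 against 278 and 301 and ALAS2, the erythroid enzyme of heme synthesis, had 358 and 239.6 against 644 and 917, where both carnitine pools lay below both control pools (log2 change -1.39, SE 0.30, limma adjusted p = 0.342). The part of these cells in the stromal differences was not tested.

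**Figure D5:**
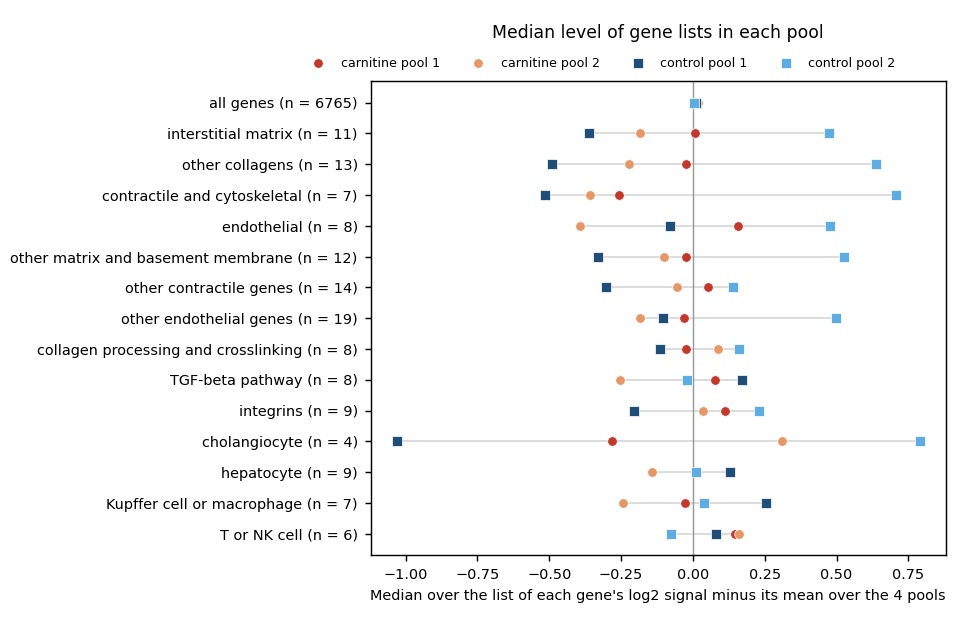
Median, over each gene list, of a gene's log2 signal minus its mean over the 4 pools, with red and orange circles for carnitine pools, blue squares for control pools and the number of measured genes beside each list. Control pool 2 lies to the right of control pool 1 for the matrix, collagen, contractile, endothelial and cholangiocyte lists, with 0.71 against -0.51 for the contractile genes, and to the left of it for the hepatocyte, macrophage and T or NK cell lists.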

How the data were processed

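Liver RNA of 4 pools, 2 per diet, was measured on 4 arrays. What the authors deposited are linear intensities from MAS5, in which background is subtracted, probe pairs are summarised to a signal and each array is scaled. MAS5 5.0, GCOS 1.1.2 and Affymetrix Expression Console 1.1 are named in the processing notes of the submitters. Detection calls were not used here. Gene symbols came from the array annotation, 10069 probe sets having 1 symbol. The number of arrays limits the precision.

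The log2 of each signal was taken without a pseudocount, and 124 control probe sets of 24123 were left out. limma 3.58.1 in R 4.3.3 (lmFit, eBayes with a variance trend, 2 residual degrees of freedom) compared the diets over 23999 probe sets with Benjamini-Hochberg adjustment, and was checked on data made with known changes. Pools of the same diet were compared as values. The members and lists were chosen with earlier results of these data known. Named are all members above the median signal and, of each other list, at most 3 genes of smallest p and 2 of largest control pool difference. Genes named with a signal below the median lie outside that rule and were picked with their values known. The alternatives were quantile normalization, a floor at the 25th percentile, an offset of 64, a filter at the median signal, the mean over probe sets, limma without trend, analysis of variance, a replicate block and leaving out each pool.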

Additional observations from a re-analysis of the deposited data

How the results depend on the processing

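The medians of the 47 genes kept their sign under quantile normalization, a floor, an offset, a filter at the median signal and the mean over probe sets, both between the diets and between the control pools. Leaving out a pool changed more: the median log2 fold change between the diets ranged from -0.62 without control pool 1 to 0.095 without control pool 2. The number of genes past the adjusted p ranged from 0 to 1 (without control pool 1), and that at an unadjusted p under 0.05, 4 with all pools, from 1 (without carnitine pool 2, with 4.10% of all probe sets at that p) to 24 (without control pool 1, all lower, 12.3%), with 12 (9 higher and 3 lower, 12.5%) without control pool 2. Over the 34 genes above the median signal, 15 differed by 2-fold between the control pools in place of 23 of 47, since fewer genes are counted. Of the 10 brighter genes without overlap between the diets, 2 turned on other probe sets: FN1 had 0.78 and 0.26, and COL5A1 1.59 and 0.60, of which the first of FN1 lay above the median signal. The cause was not tested. With an offset of 64 the control pool difference of VWF was 2.38 in place of 3.51 on the log2 scale. Pools share only a number, and the deviations of same-numbered pools correlated at r = 0.00488 across probe sets. With the replicate block 6 genes were at an unadjusted p under 0.05 and 0 at an adjusted one in limma. The share over all probe sets is not given for that fit, so the 6 cannot be set against it. Without detection calls the signal over background is unknown.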

Other observations

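Some genes outside the lists had the same order of pools, chosen here after their values were seen from the 20 genes with the largest excess of control pool 2 over control pool 1 above the median signal. CCL21, a chemokine of lymphatic endothelium and portal stroma, gave 364 and 226 in carnitine pools 1 and 2 against 40.2 and 1520.0 in control pools 1 and 2. SPARCL1, a matricellular protein related to SPARC, had 207 and 244 against 141 and 772, and CCDC80, a matrix protein, 343 and 459 against 247 and 1017. In all 3 both carnitine pools lay between the control pools. The same 20 also held genes of other kinds. GALP had 5820 and 3095 against 158 and 9363, and CYP2A19 11084 and 12957 against 3952 and 18053, in that same order. TCN1 and APOA4 were among the 20 too, without that order.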
